A study of Mus musculus with 15 samples.

Results

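Mouse embryonic stem cells (ESCs) that lack Nat1, carried a tet-inducible EGFP transgene and grew with doxycycline (Dox) differed measurably from their Nat1-null parent cells in few genes. The comparison took 6 of the 15 arrays of the study, chosen by their labelled group: 3 of tet-inducible EGFP-expressing Nat1-null ESCs grown with Dox, and 3 of the Nat1-null ESCs themselves. All 6 carry the Nat1-null genotype, and no label gives a dose or duration of Dox. The other groups of 3 arrays were wild-type ESCs, tet-inducible Map3k3-expressing Nat1-null ESCs without Dox, and the same Map3k3 cells with Dox. All cells grew on gelatin-coated plates, and total RNA was hybridised to single-colour Agilent arrays. There was no EGFP group without Dox and no plain null group with Dox, so effects of Dox, of EGFP and of deriving the line cannot be told apart. The labels do not say whether the 3 samples of a group were separate cultures, or whether a line was a single clone. The p-values therefore describe only the spread among these samples. Part of that spread may be technical, and in null-derived cells part of it followed replicate number, as given below.

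EGFP, a green fluorescent protein from jellyfish, is a common control cargo for inducible transgenes. In a tet-inducible cell, Dox binds a bacterial repressor-derived transactivator, which then switches on the transgene. Dox is also an antibiotic that binds bacterial-type ribosomes and can slow protein synthesis in mitochondria, which is why genes of mitochondrial translation, of the respiratory chain and of the ATF4 stress response are of interest in such a control. The gene that the labels call Nat1 is Eif4g2, a relative of the translation scaffold eIF4G that lacks its cap-binding part. Mouse ESCs without it are known to stay undifferentiated and to resist differentiation.

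Values are log2 signals relative to the 75th percentile of the probes of the same array, so 0 is the level of that percentile, and differences between groups are on the same log2 scale. The 75th percentile itself was 504 to 535 units on the null arrays and 503 to 527 units on the EGFP arrays. On the 6 arrays, 47.1 to 50.8% of 55681 probes were well above background, a range inside that of all 15 arrays (42.7 to 53.9%). No probe for EGFP was identified among the probes, so induction of the transgene was not measured here. The arrays lay on 2 slides with 2 rows each. The 3 null arrays and EGFP 3 were on slide 2, the null arrays in row 2 and EGFP 3 in row 1, and EGFP 1 and EGFP 2 were on slide 1 in row 2. No EGFP array therefore shared both slide and row with a null array. In bulk RNA of this kind, fewer cells of a type and less RNA per cell cannot be told apart.

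Eif4g2, the targeted gene, was lower than in wild-type cells in both groups, though signal remained. Its single probe was above background on all 15 arrays. It read 1.78, 1.49 and 1.86 on the null arrays and 1.47, 1.35 and 1.85 on the EGFP arrays, against 4.14, 4.40 and 4.39 on the wild-type arrays. The null and EGFP arrays overlapped, and both lay below every wild-type array. The difference EGFP minus null was -0.16 (95% interval -0.46 to 0.15, adjusted p = 0.862, limma), and its direction turned with slide as a block (0.14) and with slide and row as blocks (0.09). Map3k3, the kinase whose transgene the sister line carries, read -0.88, -0.60 and -0.87 in null and -0.86, -0.67 and -0.78 in EGFP cells, a difference of 0.01 (interval -0.24 to 0.27) that leaves out changes above 1.20-fold. The N-acetyltransferase gene that bears the symbol Nat1 today was not well above background on any of the 6 arrays, at -5.97, -5.82 and -5.86 in null and -5.71, -5.99 and -6.28 in EGFP cells.

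The labelled cell type was borne out by its markers in both groups. All 10 ESC markers were above background on all 6 arrays, and their summed linear level was 1330 to 1360 times the 75th percentile in null and 1290 to 1330 times in EGFP cells. Of 10 fibroblast or feeder markers, 3 were above background on all 6 arrays and 5 on none, with summed levels of 6.21 to 6.50 in null and 5.24 to 5.86 in EGFP cells. Col1a1, Thy1 and Tagln were the 3 above it on all 6 arrays, and Col1a2, Acta2, Dcn, Lum and Pdgfra the 5 on none. Postn was above it on 1 null array, and Col3a1 is given below. The fibroblast sums did not overlap, and their part in the results was not tested. Summed markers of endoderm (0.151 to 0.202 against 0.139 to 0.167), trophectoderm (0.401 to 0.591 against 0.386 to 0.499), neural cells (1.20 to 1.79 against 1.29 to 2.03) and mesoderm (0.377 to 0.391 against 0.333 to 0.397) overlapped between null and EGFP arrays. Col3a1, a fibrillar collagen, was the marker with the widest gap. It read -0.63, -2.29 and -4.22 in null and -4.25, -5.52 and -4.74 in EGFP cells, above background on 2 arrays, both of null cells, and was not called.

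The replicate numbers 1 to 3 were shared between the null-derived groups. Deviations of arrays from their group means correlated between null and EGFP arrays of equal number at 0.251, 0.561 and 0.383, and at most 0.230 between unequal numbers. In the 12 null-derived arrays, replicate number passed an F-test in 3584 genes (24.8%; limma, adjusted p under 0.05), and 300 of these differed at least 2-fold. The Y-linked translation factor gene Eif2s3y shows the pattern. It read 2.57, 3.45 and 1.00 in null and 2.60, 3.40 and 1.41 in EGFP cells, against 3.63, 3.75 and 3.77 in wild-type cells (replicate number, adjusted p = 6.26e-05). Number 2 was highest and number 3 lowest in both groups, 3.98-fold apart between EGFP 2 and EGFP 3, while the wild-type arrays lay together. Ddx3y, a Y-linked RNA helicase gene, read 0.38, 1.69 and -0.62 in null and 0.50, 1.71 and -0.18 in EGFP cells, the same order. In the Y-linked genes Sly, Gm20736, Gm21996 and Uty number 2 was also highest in both groups, but EGFP 3 lay above EGFP 1. Sly, for example, read -2.645, -1.262 and -2.423 in EGFP cells. Rbmy and Zfy1 were above background on none of the 6 arrays.

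Long runs of neighbouring genes followed the number too. On chromosome 5, a run of 126 of the 746 genes measured, from Actr3b to G6pd2, lay a median 0.85 lower in EGFP 2 than in the mean of EGFP 1 and EGFP 3 (1.81-fold, 118 genes lower), and 0.82 lower in null 2 than in the other null arrays. The rest of the chromosome was at -0.01 in EGFP 2 and 0.03 in null 2. On chromosome 10, 48 of 558 genes from Dse to Tbc1d32 lay a median 0.91 lower in EGFP 2 and 0.85 lower in null 2. Both runs had an EGFP minus null median of -0.01. On chromosome 1, the median gene stood 0.50, 0.15 and 0.53 above the wild-type mean in the 3 null arrays and 0.42, 0.07 and 0.42 above it in the EGFP arrays. The cause of these patterns was not tested. Of the null-derived groups, EGFP cells and Map3k3 cells with Dox paired least clearly. Their arrays correlated at 0.101, 0.316 and 0.193 at equal numbers, and at most 0.186 at unequal ones. Over the 6 Map3k3 arrays alone, replicate number passed the F-test in 0 of 14443 genes (limma, adjusted p under 0.05). That fit leaves few residual degrees of freedom, so it could pass few genes even where numbers pair. Map3k3 arrays without and with Dox correlated at 0.154, 0.318 and 0.252 at equal numbers, and at most 0.121 at unequal ones. Since numbers pair most null-derived groups, results are given with replicate number as a block over the 12 null-derived arrays wherever this changes a call.

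**Figure D1:**
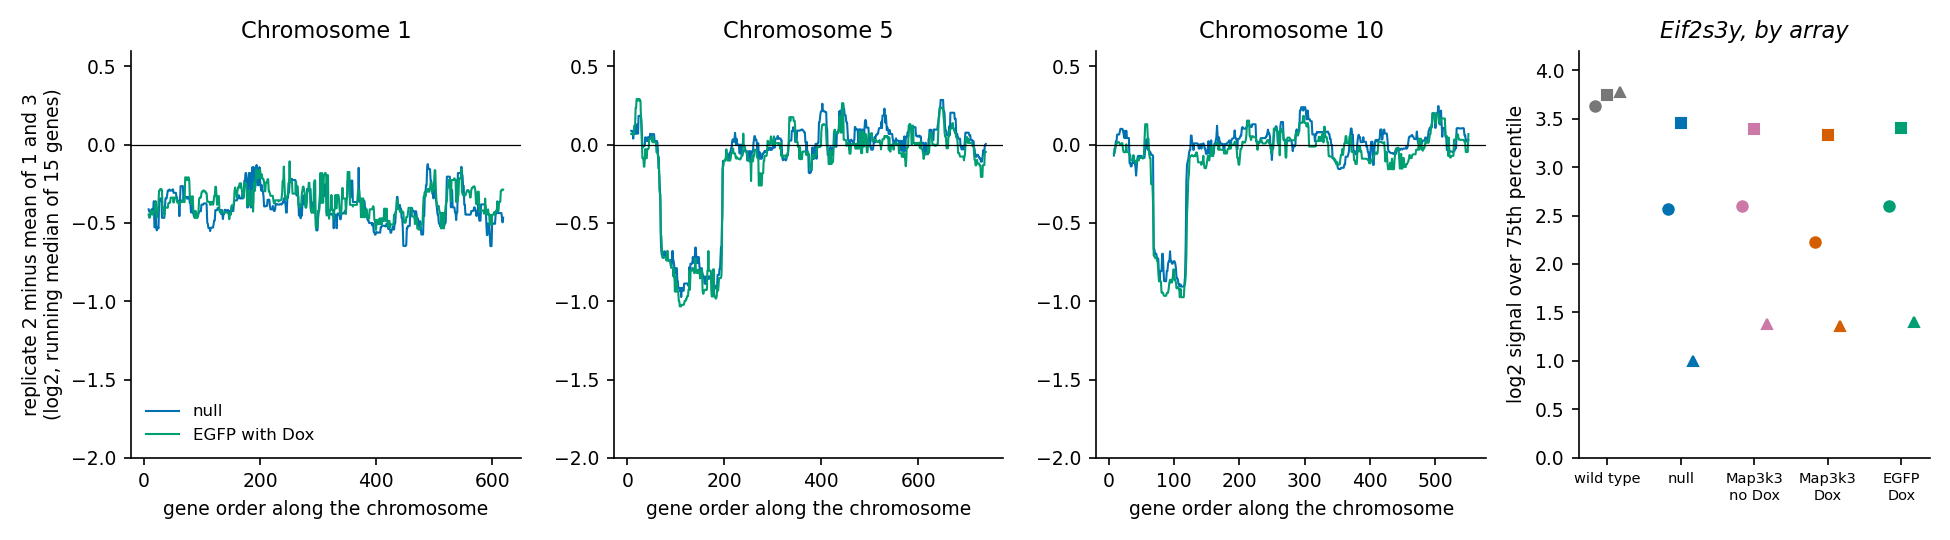
Signal of replicate 2 minus the mean of replicates 1 and 3, as a running median of 15 neighbouring genes in log2 units, in gene order along chromosomes 1, 5 and 10 for null and EGFP arrays, and the log2 signal of Eif2s3y on each of the 15 arrays. The null and EGFP lines dip together over 126 genes of chromosome 5 (medians -0.82 and -0.85) and 48 genes of chromosome 10 (medians -0.85 and -0.91), and Eif2s3y separates by replicate number (circle 1, square 2, triangle 3) in every null-derived group.

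Tfap2a was the only gene of 14443 tested that passed in the comparison of EGFP with null cells (1 gene, 0.00692%; limma, adjusted p under 0.05 and at least 1.5-fold), and it was higher. Tfap2a encodes AP-2alpha, a transcription factor of trophoblast, epidermis and neural crest that binds palindromic GC-rich sites. It read -1.60, -1.66 and -1.70 in null cells and -0.48, -0.94 and -0.72 in EGFP cells. Every EGFP array lay above every null array, and the null arrays spread over only 0.10. The difference was 0.94 (SE 0.10, interval 0.73 to 1.15), or 1.92-fold (1.66 to 2.22), with an adjusted p of 0.00686, and it was 1.12, 0.72 and 0.99 in pairs of equal number, the last of them on 1 slide. With replicate number as a block the interval was 0.75 to 1.13 and the adjusted p 0.0191.

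The call on Tfap2a leaned on the arrays used to estimate the spread. Its adjusted p was 0.843 over the 6 arrays alone, 0.209 over those 6 with the replicate block, 0.0752 over the 12 null-derived arrays without a block and 0.0727 without null 3. It was 0.548 with both slide and row as blocks, where the difference was 0.845. Without null 3 no gene was called, without null 1 and null 2 there were 6 and 8, and without any 1 EGFP array there were 2. A single probe of Tfap2a carries the result, since the second probe on the array was above background on 2 arrays only and was not tested.

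In the other lines, Tfap2a read -1.35, -1.50 and -1.34 in Map3k3 cells without Dox, -0.58, -0.66 and -0.69 in Map3k3 cells with Dox, and -3.01, -3.00 and -3.04 in wild-type cells. The arrays of the 2 groups with Dox thus overlapped each other, and all 6 lay above all 6 arrays of null-derived cells without Dox. Tfap2a was picked for its EGFP minus null difference, so the gap between those 2 groups was built in. The test of EGFP against Map3k3 cells without Dox gave 0.68 (interval 0.47 to 0.89), with an adjusted p of 0.186, or 0.161 with the block, so it was not called. Map3k3 cells without Dox minus null, which shares the null arrays, was 0.26 (interval 0.05 to 0.47, adjusted p = 0.27). Map3k3 cells with against without Dox share no array with the null and EGFP groups, and there Tfap2a rose by 0.75 (interval 0.54 to 0.96, 1.68-fold, adjusted p = 8.07e-05). That test was added after the values were seen. It called 2579 genes in all (17.9%; 1773 higher, 12.3%, and 806 lower, 5.58%), and Dox cannot be told apart from the Map3k3 transgene in it.

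The promoters of Tfap2a and of Hmga2, a chromatin protein gene described further on, are shown because Tfap2a is the gene called with and without the block and Hmga2 had the widest difference towards EGFP cells among genes above background on all 6 arrays. They are the 250 bases before each RefSeq start (GRCm38.p6, minus strand). Capitals mark the GC box GGGCGG or its reverse complement, the core of the site that Sp-family factors bind. Tfap2a 1 lies at chr13:40734921-40735170, Tfap2a 2 at chr13:40733796-40734045 and Hmga2 at chr10:120476470-120476719.
Tfap2a 1: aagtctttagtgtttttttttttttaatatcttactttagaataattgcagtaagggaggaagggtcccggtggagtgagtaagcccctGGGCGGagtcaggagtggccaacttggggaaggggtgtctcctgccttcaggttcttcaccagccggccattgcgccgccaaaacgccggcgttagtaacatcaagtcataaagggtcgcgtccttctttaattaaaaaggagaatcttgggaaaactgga
Tfap2a 2: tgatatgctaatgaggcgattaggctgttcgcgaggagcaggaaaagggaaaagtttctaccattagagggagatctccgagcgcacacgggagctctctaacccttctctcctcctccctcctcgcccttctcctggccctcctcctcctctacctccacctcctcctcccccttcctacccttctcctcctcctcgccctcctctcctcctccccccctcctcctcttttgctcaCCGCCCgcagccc
Hmga2: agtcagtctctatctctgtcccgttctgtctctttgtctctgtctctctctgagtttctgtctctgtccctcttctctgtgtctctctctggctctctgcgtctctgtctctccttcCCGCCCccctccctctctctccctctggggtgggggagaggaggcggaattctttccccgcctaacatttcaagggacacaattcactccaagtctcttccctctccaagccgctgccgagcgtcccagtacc
Each of the 3 holds 1 GC box, beginning 161, 13 and 133 bases before the start. The AP-2 motif GCCNNNGGC and the TATA motif TATAAA, searched on both strands, are in none of them. Among all 32851 promoters of the table, 32.7% hold the GC box, 13.7% the AP-2 motif and 12.4% the TATA motif. GC content is 47.6% and 60.4% for the starts of Tfap2a and 56.4% for Hmga2.

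With replicate number as a block over the 12 null-derived arrays, 14 genes passed (0.0969%; limma, adjusted p under 0.05 and at least 1.5-fold), 5 higher (0.0346%) and 9 lower (0.0623%) in EGFP cells. The same block over all 15 arrays called Tfap2a alone, and over the 6 arrays of the comparison it called 0 genes, so neither made the other calls of the 14. All 14 moved the same way in all 3 pairs of equal number, 6 of them at least 1.5-fold in each pair. In pair 3, the only pair on 1 slide, 12 of the 14 differed at least 1.5-fold, with sizes of 0.51 to 1.60. In 10 genes the EGFP and null arrays did not overlap, against 1680 of all 14443 genes (11.6%). The fit that picked the 14 used these same arrays and pairs. Agreement between pairs and lack of overlap were therefore largely built in, and give no separate support. All but Map7d3 rest on 1 probe above background.

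Slide as a block gave 20 genes, 15 higher and 5 lower, of which Tfap2a alone was called without it. That fit leans on EGFP 3, the only EGFP array on the slide of the null arrays: EGFP 3 was outside the range of the other 5 arrays in 19 of the 20, and EGFP 1 and EGFP 2 were within 1.5-fold of the null mean in 17. Within slide 2 the comparison has 1 EGFP array, and slide 1 held no null array, so neither slide alone gives a test.

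Regulators stood among the genes that rose with the block. Hoxb13, a posterior homeobox gene, read -0.51, -0.34 and -0.73 in null and 0.41, 0.20 and 0.05 in EGFP cells, without overlap (0.75, 1.68-fold, adjusted p = 0.0459 blocked and 0.243 unblocked). Tshz1, a teashirt zinc finger gene, read -1.72, -1.21 and -1.88 in null and -0.87, -0.59 and -1.06 in EGFP cells, again without overlap (0.76, 1.70-fold, adjusted p = 0.0191 blocked and 0.454 unblocked). Number 2 was the highest array in both groups, which the block takes up. Mapk4, the atypical MAP kinase ERK4, read -2.38, -1.82 and -1.91 in null and -1.47, -1.12 and -1.40 in EGFP cells (0.70, 1.63-fold, adjusted p = 0.0459 blocked and 0.368 unblocked). Its EGFP arrays all lay above its null arrays.

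The fifth gene that rose, besides Tfap2a, is known only by the clone name 2310065F04Rik. It was not above background on any null array (-4.59, -4.31 and -3.82) and was above it on all 3 EGFP arrays (-2.77, -2.16 and -2.22). EGFP cells were therefore at least 2.95-fold higher, with the measured null signal raised to the lowest value above background on each array (adjusted p = 0.0459 blocked, 0.0632 unblocked). It read -4.12, -4.11 and -4.13 in Map3k3 cells without Dox and -4.94, -5.27 and -4.30 in Map3k3 cells with Dox, so the EGFP arrays stood above all others shown.

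Genes that fell with the block included those of a secreted growth factor, a transporter and a channel subunit. Fgf15, a secreted fibroblast growth factor expressed in early embryonic tissue, read 0.23, -0.59 and 0.47 in null and -0.60, -1.44 and -0.36 in EGFP cells. The groups overlap, yet the pairs of equal number differed by -0.83, -0.85 and -0.83 (adjusted p = 0.0191 blocked and 0.651 unblocked, 1.78-fold lower). Slc38a5, a glutamine transporter gene, read 2.76, 3.32 and 3.19 in null and 1.94, 2.84 and 2.55 in EGFP cells (-0.65, 1.57-fold lower, adjusted p = 0.0459 blocked and 0.620 unblocked). Its groups overlap through EGFP 2 and null 1, and its sign turned with slide and row as blocks (0.15). Scn2b, a sodium channel subunit gene, read 0.61, 0.24 and 0.65 in null and 0.04, -0.38 and -0.13 in EGFP cells, without overlap (-0.66, 1.58-fold lower, adjusted p = 0.0459 blocked and 0.402 unblocked).

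Map7d3, a microtubule-associated protein gene on the X chromosome, fell furthest of the 9 in measured signal. It read -1.47, -1.48 and -1.20 in null and -2.51, -2.18 and -2.31 in EGFP cells, with no overlap, and 2.46, 2.71 and 2.77 in wild-type cells. The difference of -0.95 (1.93-fold lower) had an adjusted p of 0.0459 blocked and 0.0632 unblocked, and its second probe gave -0.78. Fam111a, a protease gene linked to DNA replication, read -0.44, -0.89 and -0.05 in null and -1.33, -1.61 and -1.01 in EGFP cells (-0.85, 1.81-fold lower, adjusted p = 0.0459 blocked and 0.401 unblocked). Mboat1, a lysophospholipid acyltransferase gene, read -1.02, -1.40 and -0.65 in null and -1.73, -1.94 and -1.47 in EGFP cells (-0.69, 1.61-fold lower, adjusted p = 0.0459 blocked and 0.411 unblocked). In both genes the arrays of number 2 were the lowest of their group, and in neither did the groups overlap.

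The last of the 14 lay close to the 1.5-fold minimum. Syce1, a synaptonemal complex gene of meiosis, read 2.75, 3.27 and 3.10 in null and 2.19, 2.78 and 2.38 in EGFP cells (-0.59, 1.51-fold lower, adjusted p = 0.0459 blocked and 0.524 unblocked). Gm4984, an X-linked gene known by a locus name, read -0.44, -0.24 and -0.45 in null and -1.26, -0.71 and -0.96 in EGFP cells (-0.60, 1.52-fold lower, adjusted p = 0.0459 blocked and 0.243 unblocked). Fcgbp, a mucus protein that binds the Fc part of IgG, read -3.18, -3.97 and -2.79 in null and -3.85, -4.54 and -3.48 in EGFP cells, above background on 2 and 1 arrays. The difference was -0.64 (1.56-fold lower in EGFP cells, adjusted p = 0.0191 blocked and 0.774 unblocked). The arrays overlapped for Syce1 and Fcgbp, not for Gm4984.

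**Figure D2:**
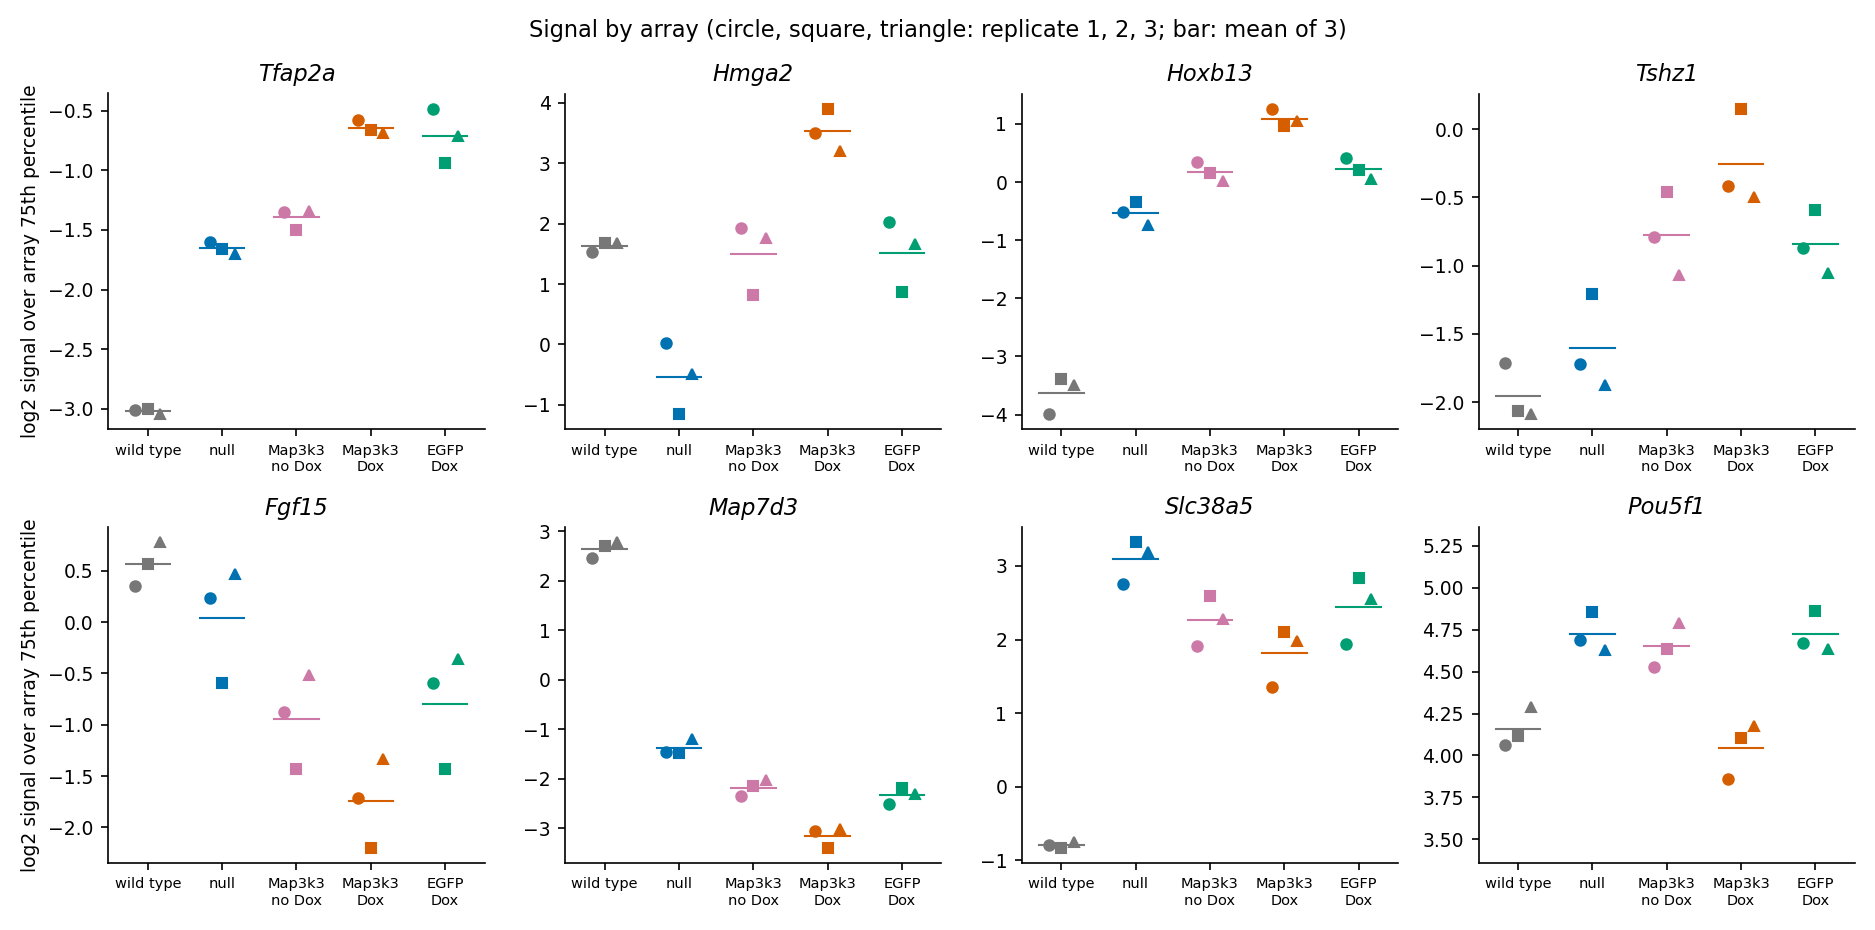
Log2 signal over the array's 75th percentile of 8 genes on all 15 arrays, by group, with circle, square and triangle for replicates 1, 2 and 3 and a bar at the mean of 3. Tfap2a is higher in the 2 groups with Dox (for EGFP -0.94 to -0.48) than in null cells (-1.70 to -1.60), Fgf15 overlaps between null and EGFP arrays while each number lies lower in EGFP cells, and Pou5f1 reads 4.69, 4.85 and 4.63 in null and 4.67, 4.86 and 4.63 in EGFP cells.

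The 14 genes were also read in the Map3k3 line without Dox. Both comparisons with null cells share the null arrays, so their values stand side by side only. Hoxb13 was 0.75 above null in EGFP cells and 0.69 in Map3k3 cells without Dox, Tshz1 0.76 and 0.83, and Mapk4 0.70 and 0.80. Fgf15 was -0.83 and -0.98, Map7d3 -0.95 and -0.80, and Fam111a -0.85 and -1.05. The direct difference, EGFP minus Map3k3 without Dox, had an interval that holds 0 in 12 of the 14, against 96.8% of all 14443 genes, for example -0.31 to 0.41 for Hoxb13, -0.56 to 0.43 for Tshz1, -0.62 to 0.91 for Fgf15 and -0.44 to 0.15 for Map7d3. In 11 of the 12 this interval, taken without the block, did not reach the EGFP minus null difference, and for Fcgbp it did. The 14 were picked for the size of that difference, and both differences share the EGFP arrays. The count therefore does not test whether the 2 lines share a change. The interval left out 0 for Tfap2a, above, and for 2310065F04Rik (1.74, interval 1.14 to 2.34), although neither passed over all genes (adjusted p = 0.186 and 0.260).

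The arrays of Map3k3 cells with and without Dox, which are outside the EGFP and null groups, called 3 of the 14 in the same direction, 1 in the other and did not call 10, where 17.9% of all genes were called. Besides Tfap2a these were Hoxb13, which rose by 0.93 (adjusted p = 0.000947), and Map7d3, which fell by 0.97 (adjusted p = 0.000156). Mboat1 went the other way, with a rise of 2.48 (adjusted p = 1.52e-06). With the replicate block 4 were called in the same direction and 2 in the other, where 19.2% of all genes were called (2780, of which 1857 or 12.9% higher and 923 or 6.39% lower). The calls gained were Fgf15, which fell by 0.81 (adjusted p = 0.000116 blocked and 0.0875 unblocked), and 2310065F04Rik, which fell by 0.72 and was above background on no array with Dox (adjusted p = 0.024 blocked and 0.0559 unblocked).

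Between the EGFP line with Dox and the Map3k3 line without Dox no gene was called, without or with the block (limma, 0 of 14443). At an unadjusted p under 0.05 there were 464 genes (3.21%) without and 841 (5.82%) with it. Map3k3 cells without Dox against null gave 0 calls without the block (2084 at an unadjusted p under 0.05, 14.4%) and 60 with it (0.415%; 22 higher and 38 lower). EGFP against null had 1044 genes (7.23%) at an unadjusted p under 0.05 without the block and 1991 (13.8%) with it. A p that misses the threshold does not show that values did not differ.

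Among genes above background on all 6 arrays, Hmga2 had the widest difference towards EGFP cells, and it was not called. It encodes an architectural chromatin protein that rises as ESCs leave the naive state. It read 0.03, -1.15 and -0.48 in null and 2.02, 0.86 and 1.67 in EGFP cells, with every EGFP array above every null array. The difference of 2.05 (interval 1.25 to 2.86, 4.14-fold) had an adjusted p of 0.155, or 0.072 with the block, and it was 1.99, 2.02 and 2.15 in the pairs. Its second probe gave 2.02. Map3k3 cells without Dox read 1.93, 0.82 and 1.77, and EGFP minus that group was 0.01 (interval -0.79 to 0.82). Wild-type cells read 1.53, 1.67 and 1.68 and Map3k3 cells with Dox 3.50, 3.90 and 3.20, so among the 5 groups the null arrays were the lowest.

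Several of the other widest differences came from 1 array. After Hmga2, the largest uncalled differences towards EGFP cells among genes above background on all 6 arrays, passing over clone names, were those of Ldhd, Rbbp6, Bnip3l and Rsph1. Rbbp6, a ubiquitin ligase gene, read 8.76 on EGFP 2 and 2.97 to 3.09 on the other 5 arrays, and its other probes gave -0.02 and -0.01. Bnip3l, a mitophagy receptor gene, read 8.96 on EGFP 2 against 4.62 to 4.80 elsewhere, with -0.07 to 0.05 at 3 other probes. Ldhd, a D-lactate dehydrogenase gene, was high on EGFP 1 alone (2.81), and Rsph1, a ciliary radial spoke gene, on EGFP 3 alone (5.58, with -0.05 at its other probe). Towards null cells, Lpin1, a phosphatidate phosphatase gene, read 8.35 on null 2 and -0.86 to -0.38 elsewhere, and N6amt1, a methyltransferase gene, 5.71 on null 2. These are readings of 1 probe on 1 array.

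Of 12371 genes above background on all 6 arrays, 7 stood 4-fold above the other 5 arrays on null 2, 5 on EGFP 1, 4 on EGFP 2 and 1 on EGFP 3. None stood 4-fold below them on any array. Of 15 such genes with a group difference of at least 2-fold, 8 had such an array and 7 did not. The 7, named here because of their values, were Hmga2 and Gjb5, higher in EGFP cells, and Calml4, Ccnd2, Gstm5, Pdcl2 and Sh3bgrl, lower. Ccnd2, which encodes cyclin D2, read -1.19, -2.02 and -0.83 in null and -2.98, -3.26 and -2.12 in EGFP cells (-1.44, adjusted p = 0.375, or 0.212 with the block). Pdcl2, a phosducin-like gene, read -0.22, -2.59 and -1.66 in null and -3.01, -3.24 and -2.88 in EGFP cells (-1.56, adjusted p = 0.482). In both, every EGFP array lay below every null array. Without regard to direction, the groups did not overlap in 5 of the 7, against 1680 of all 14443 genes (11.6%). The 7 were picked for a wide group difference without an outlying array, so lack of overlap was largely built in. Calml4, a calmodulin-like gene, overlapped (2.68, 0.01 and 3.65 against 1.13, -0.81 and 2.19).

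**Figure D3:**
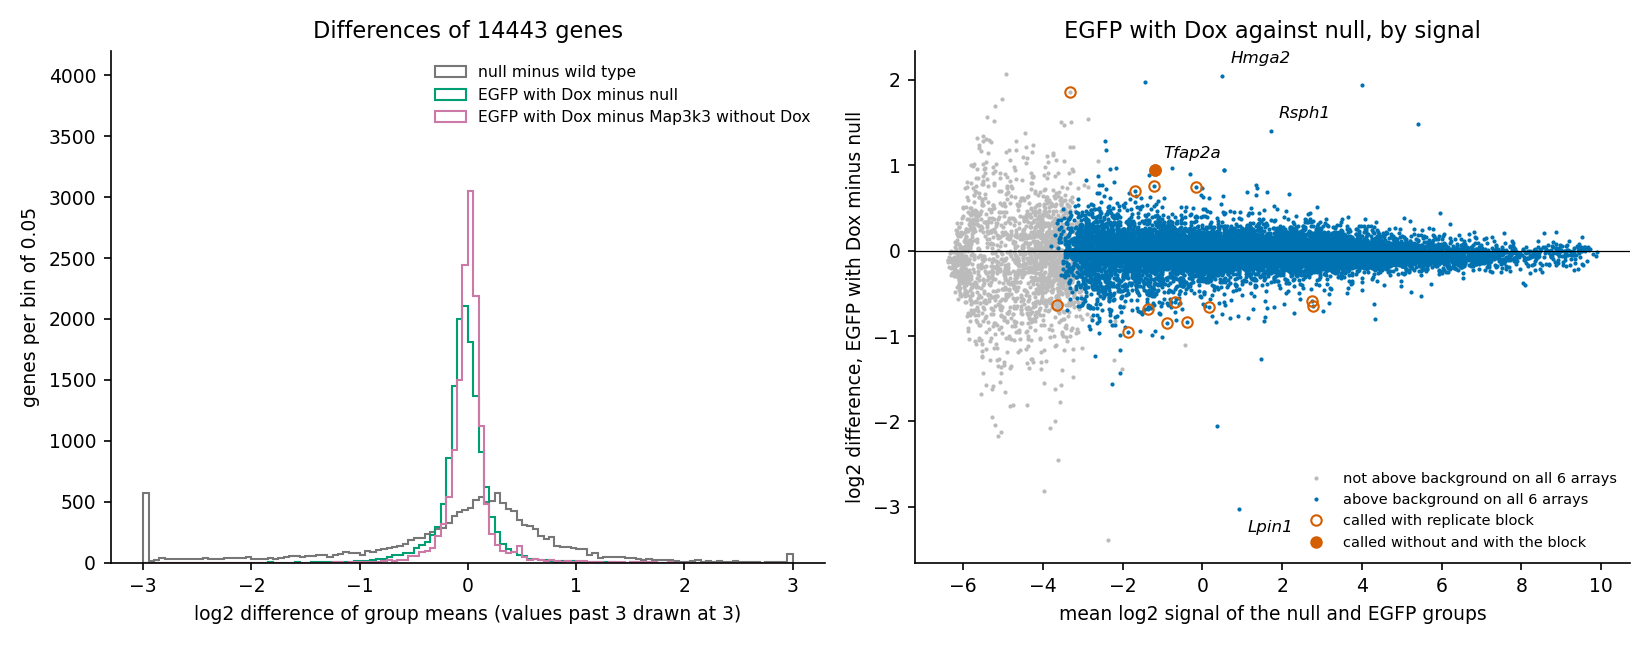
Left, log2 differences of group means for 14443 genes in bins of 0.05, for null minus wild type, EGFP minus null and EGFP minus Map3k3 without Dox. Right, the EGFP minus null difference against mean log2 signal, with genes above background on all 6 arrays in blue, others in grey, and the 14 genes called with the replicate block ringed (Tfap2a filled). Both narrow distributions centre near 0 while null minus wild type has 23.6% of genes beyond 2-fold.

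The spread of differences puts these genes in scale. EGFP minus null had a median of -0.03 over 14443 genes, with 5th and 95th percentiles of -0.43 and 0.29, and 149 genes (1.03%) differed at least 2-fold. Null minus wild type on the same arrays ran from -2.68 to 1.20 between these percentiles, with 3408 genes (23.6%) beyond 2-fold and 5449 called (37.7%; 2485 higher, 17.2%, and 2964 lower, 20.5%). For Map3k3 without Dox minus null, 189 genes (1.31%) were beyond 2-fold, and for EGFP minus Map3k3 without Dox 128 (0.886%). Among the 11856 genes above background on all 15 arrays, only 12 (0.101%) were beyond 2-fold between EGFP and null cells, so most such differences were in dim genes.

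The size of change that the data leave out was read from the 95% interval of each gene, as the larger of the sizes of its ends. Over 14443 genes the median of this limit was 1.30-fold, with 10th and 90th percentiles of 1.15 and 2.15. A change of 4-fold or more in either direction was outside the interval for 98.1% of genes, of 2-fold for 12691 genes (87.9%), of 1.5-fold for 10190 (70.6%) and of 1.25-fold for 39.4%. With the replicate block the median limit was 1.24-fold, and 2-fold was outside for 13043 genes (90.3%). A gene is called bounded within 2-fold where a 2-fold change in either direction is outside its interval. These limits hold gene by gene. Widened so that they cover all genes at once (Bonferroni), the median limit was 2.15-fold, 2-fold was outside for 43.7% and 4-fold for 76.2%. Limits given from here on are without the replicate block unless stated. With the block, the genes bounded within 2-fold rose from 7 to 10 of 13 in the trophectoderm list. They fell from 13 to 11 of 13 in the list of NF-kB targets.

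The limits were tighter for bright genes than for dim ones. With genes split by mean signal into 4 equal bins, from dim to bright, a 2-fold change was outside the interval for 60.9, 93.3, 97.9 and 99.4% of genes, and a 1.5-fold change for 25.3, 73.7, 88.4 and 94.8%. The bins ran from -6.38 to -1.82, to 0.90, to 3.16 and to 9.90, with median limits of 1.80, 1.33, 1.24 and 1.20-fold. For the 12371 genes above background on all 6 arrays, 2-fold was outside for 95.4% and 1.5-fold for 81.0%. For the 858 genes above background on none of the 6, kept because another group expressed them, 2-fold was outside for 44.5%, and for the 1214 genes above it on 1 to 5 arrays, 42.3%.

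**Figure D4:**
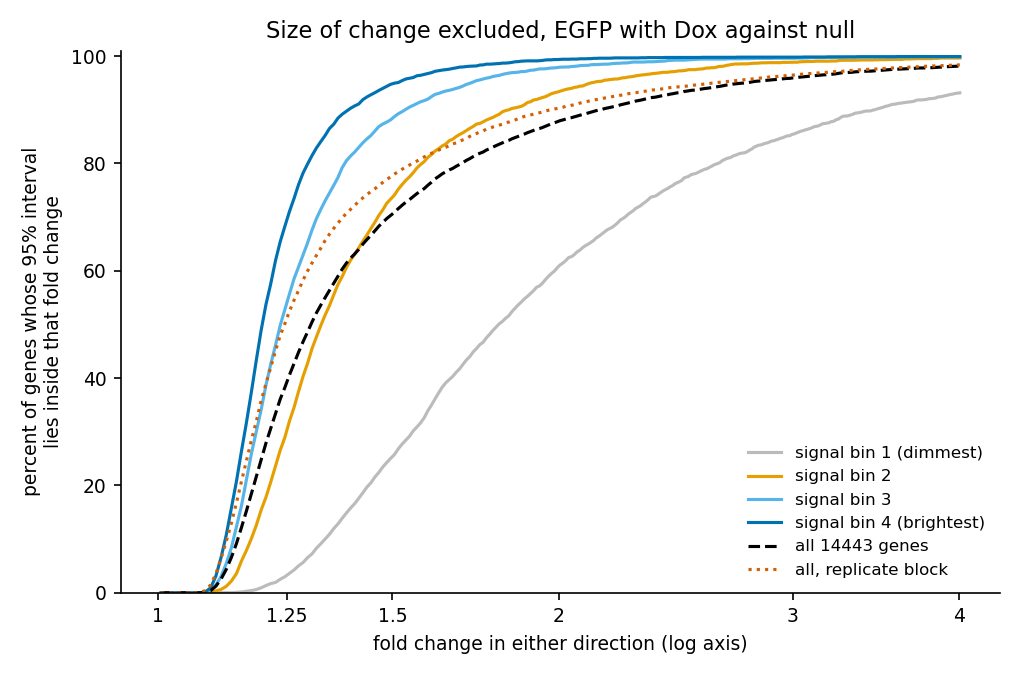
Percent of genes whose 95% interval for EGFP minus null lies inside a given fold change in either direction (log axis), by bin of mean signal, for all genes, and for all genes with the replicate block over 12 arrays. At 2-fold the lines stand at 60.9, 93.3, 97.9 and 99.4% for bins 1 to 4, at 87.9% for all genes and at 90.3% with the block.

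Pluripotency genes differed little and were tightly bounded. Pou5f1, the core factor Oct4, read 4.69, 4.85 and 4.63 in null and 4.67, 4.86 and 4.63 in EGFP cells, a difference of 0.00 that leaves out changes above 1.18-fold. Nanog read 7.36, 7.37 and 7.29 in null and 7.38, 7.22 and 7.30 in EGFP cells (-0.04, limit 1.14-fold). Sox2, partner of Oct4 on DNA, differed by -0.04 (limit 1.15-fold) and Klf4, a naive-state Kruppel-like factor, by 0.14 (limit 1.24-fold). Of 18 naive pluripotency genes none was called, the median was 0.02, and 2-fold was outside the interval for 17. The extremes were Tcl1, a co-activator of the kinase AKT, at 0.26 and Dppa3, an oocyte and germline factor, at -0.53 (interval -1.36 to 0.30). Of 15 general pluripotency genes none was called, with a median of -0.04 and 14 bounded within 2-fold. Their extremes were Dppa2 at 0.08 and the let-7 blocker Lin28b at -0.40, which followed replicate number (1.36, -0.14 and 1.90 in null, 1.11, -0.67 and 1.48 in EGFP cells).

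A few genes that part null from wild-type cells, chosen with their values known, read in EGFP cells close to the null level, unlike Hmga2, above, which read near the wild-type level. Klf4 averaged 3.16 in wild-type, 6.42 in null and 6.56 in EGFP cells, Tfcp2l1 2.60, 5.76 and 5.80, and Tbx3 2.46, 6.35 and 6.53; all 3 are factors of the naive state. Dnmt3a, a DNA methyltransferase gene, averaged 0.52, -2.58 and -2.30. Gadd45g, a stress and growth arrest gene, averaged 3.46, -1.72 and -1.71, against 3.68 in Map3k3 cells with Dox. Dusp4, a phosphatase induced by ERK signalling, averaged 3.04, -0.73 and -1.21, and its EGFP minus null difference of -0.48 (interval -0.85 to -0.10) was not called (adjusted p = 0.577).

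Genes bearing on mitochondrial translation, where Dox can act, differed little. Of 77 genes of the mitochondrial ribosome none was called, and 2-fold was outside the interval for all 77 and 1.5-fold for 74. Their median was -0.09, with 74 of 77 below 0, beside -0.03 and 8413 of 14443 for all genes. The median was -0.10, -0.16 and -0.01 in pairs 1, 2 and 3, beside -0.05, -0.04 and 0.01 for all genes. With slide and row as blocks the median of the 77 was 0.01. Pair 3 was the only pair on 1 slide but differed in row, and the cause of these shifts was not tested. Unadjusted p was under 0.05 for 9 of the 77 (11.7%), beside 7.23% of all genes. Extremes were Mrpl30 at -0.24 and Mrps2 at 0.05. Map3k3 cells without Dox, against the same null arrays, had a median of -0.13 for these genes, and EGFP minus Map3k3 without Dox a median of 0.05.

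Other lists of mitochondrial function and of the ATF4 response also held no call, without or with the replicate block. Of 83 nuclear genes of the respiratory chain none was called, the median was -0.05 and 80 were bounded within 2-fold. Their extremes, Cox6a2 (-1.31) and Cox7b2 (1.02), are tissue-restricted subunits, and Cox6a2 was above background on 1 array, null 3. The 12 mitochondrial chaperone and protease genes had a median of -0.06 and all were bounded within 2-fold, from Hspe1 (-0.18) to Lonp1 (0.05). Of 24 ATF4 targets none was called, with a median of 0.07 and 22 bounded. Chac1, a glutathione-degrading enzyme gene, was the highest at 0.69 (0.87, 0.33 and 1.12 in null, 1.35, 1.44 and 1.59 in EGFP cells, interval -0.11 to 1.48) and did not overlap between groups. Phgdh, the first enzyme of serine synthesis, was the lowest at -0.39.

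Metabolic and stress lists held no call. The 20 glycolysis genes had a median of 0.02 and all were bounded within 2-fold, from Eno3 (-0.26) to Pfkp (0.12). The 12 hypoxia targets had a median of 0.18, with 10 above 0, and the highest was Ndrg1 (0.69, 1.75 and 0.59 in null, 1.24, 2.30 and 1.46 in EGFP cells, a difference of 0.66, adjusted p = 0.749) and the lowest P4ha2 at -0.07. That median turned to -0.14 with slide and row as blocks. The 12 NRF2 targets, genes of oxidative defence, had a median of -0.15 with 10 below 0, from Nqo1 (-0.31) to Osgin1 (0.20), and all were bounded within 2-fold. Of 11 metal-handling genes 10 were below 0 (median -0.11, Slc30a1 at -0.28 to Slc11a2 at 0.02). Of all 14443 genes, 8413 were below 0 and 6030 above it. Cholesterol synthesis (21 genes) had a median of -0.05 with Pmvk the highest at 0.15, and 14 genes of ER stress and heat shock (median 0.00) ran from Hspa8 (-0.26) to Herpud1 (0.33). The 16 proliferation genes lay between -0.16 (Cdk1) and 0.04 (Ccnb2), and 75 of 76 cytosolic ribosomal protein genes were bounded within 2-fold, with Rps2 the highest at 0.21.

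Genes of the damage and antiviral responses were not called either. Of 19 p53 targets none was called, with a median of 0.04. Pmaip1, which encodes the cell-death protein Noxa, was the highest: it read 0.74, 0.78 and 0.63 in null and 1.28, 1.17 and 1.07 in EGFP cells, without overlap (0.46, interval 0.24 to 0.67, adjusted p = 0.243, or 0.056 with the block). The lowest was Plk2 at -0.17. Of 15 interferon response genes none was called and 8 were bounded within 2-fold. Oas1a, an antiviral oligoadenylate synthetase gene, was the lowest at -0.73 (2.86, 2.20 and 2.89 in null, 2.04, 1.52 and 2.22 in EGFP cells), with an adjusted p of 0.509, or 0.0687 with the block, and the highest was Ifih1 at 0.26.

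Signalling lists matter because Map3k3 acts upstream of MAP kinases and the EGFP line is its control. None of 19 MAP kinase cascade genes was called (median 0.01, 18 bounded within 2-fold). Mapk8, which encodes the kinase JNK1, was the highest at 0.64 through EGFP 2 alone (-0.69, against -2.97 to -2.67 on the other 5 arrays), and Map2k7 the lowest at -0.24. Of 20 ERK targets none was called (median -0.03). Egr1, an immediate early transcription factor, was the highest, with 1.04, 1.58 and 1.25 in null and 1.67, 2.38 and 1.87 in EGFP cells and no overlap (0.68, interval 0.06 to 1.31, adjusted p = 0.651, or 0.0887 with the block). Dusp2, a phosphatase of ERK, was the lowest, with -1.34, -1.81 and -1.12 in null and -1.90, -2.50 and -1.95 in EGFP cells (-0.69, interval -1.34 to -0.05, adjusted p = 0.659). The 13 AP-1 and stress kinase targets ran from Hbegf (-0.18) to Fosl2 (0.34), the 13 NF-kB targets from Nfkb1 (-0.17) to Ccl2 (0.16), both with medians of 0.02. Of 13 cap-binding initiation factor genes 12 were bounded within 2-fold (median -0.05), with Eif4g3 at -0.49 (interval -1.19 to 0.21) and Eif4ebp2 at 0.08 as extremes.

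Many lineage and silenced genes were near background and not bounded within 2-fold. Of 15 formative and primed genes 7 were bounded within 2-fold. Fgf15 was the only member called, and only with the block, and Sall2, above background on 1 null and 3 EGFP arrays, was the highest at 0.59. Of 13 trophectoderm genes 7 were bounded and Tfap2a was the only one above 0. The other 12 were below it, beside 8413 of all 14443 genes. They ran down to Gata3 at -0.68, which was above background on 1 array (list median -0.19, or 0.095 with slide as a block). Primitive endoderm (15 genes, median -0.17) ran from Foxa2 (-0.82, above background on none of the 6 arrays) to the laminin gene Lama1 (0.45, interval 0.02 to 0.87), mesendoderm (12 genes, median 0.03) from Evx1 (-0.41) to Hand1 (1.24), and neuroectoderm (12 genes, median -0.01) from Map2 (-1.02) to Ncam1 (0.66). Hand1 was above background on EGFP 1 alone.

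Among the remaining lists no gene was called. The 12 fibroblast and feeder genes had a median of 0.05, from Col3a1 (-2.46) to Dcn (0.68, above background on no array). The 13 germline genes had a median of -0.17, with 11 below 0, beside 8413 of all 14443 genes. They ran from Stra8 (-0.92, with -1.98, -3.31 and -1.76 in null, -3.01, -3.50 and -3.31 in EGFP cells) to Taf7l (0.05). The 25 imprinted genes had a median of -0.11, from Igf2 (-0.69) to Dlk1 (0.39), both above background on none of the 6 arrays. The 7 genes of the 2-cell-like state ran from Zscan4b (-1.25) to Zscan4c (0.62). The 5 Y-linked genes ran from Rbmy (-0.73) to Ddx3y (0.19), and of the 2 genes of X inactivation Ftx was at -0.14 and Rlim at 0.00. Over the 32 lists, 651 different genes were measured.

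**Figure D5:**
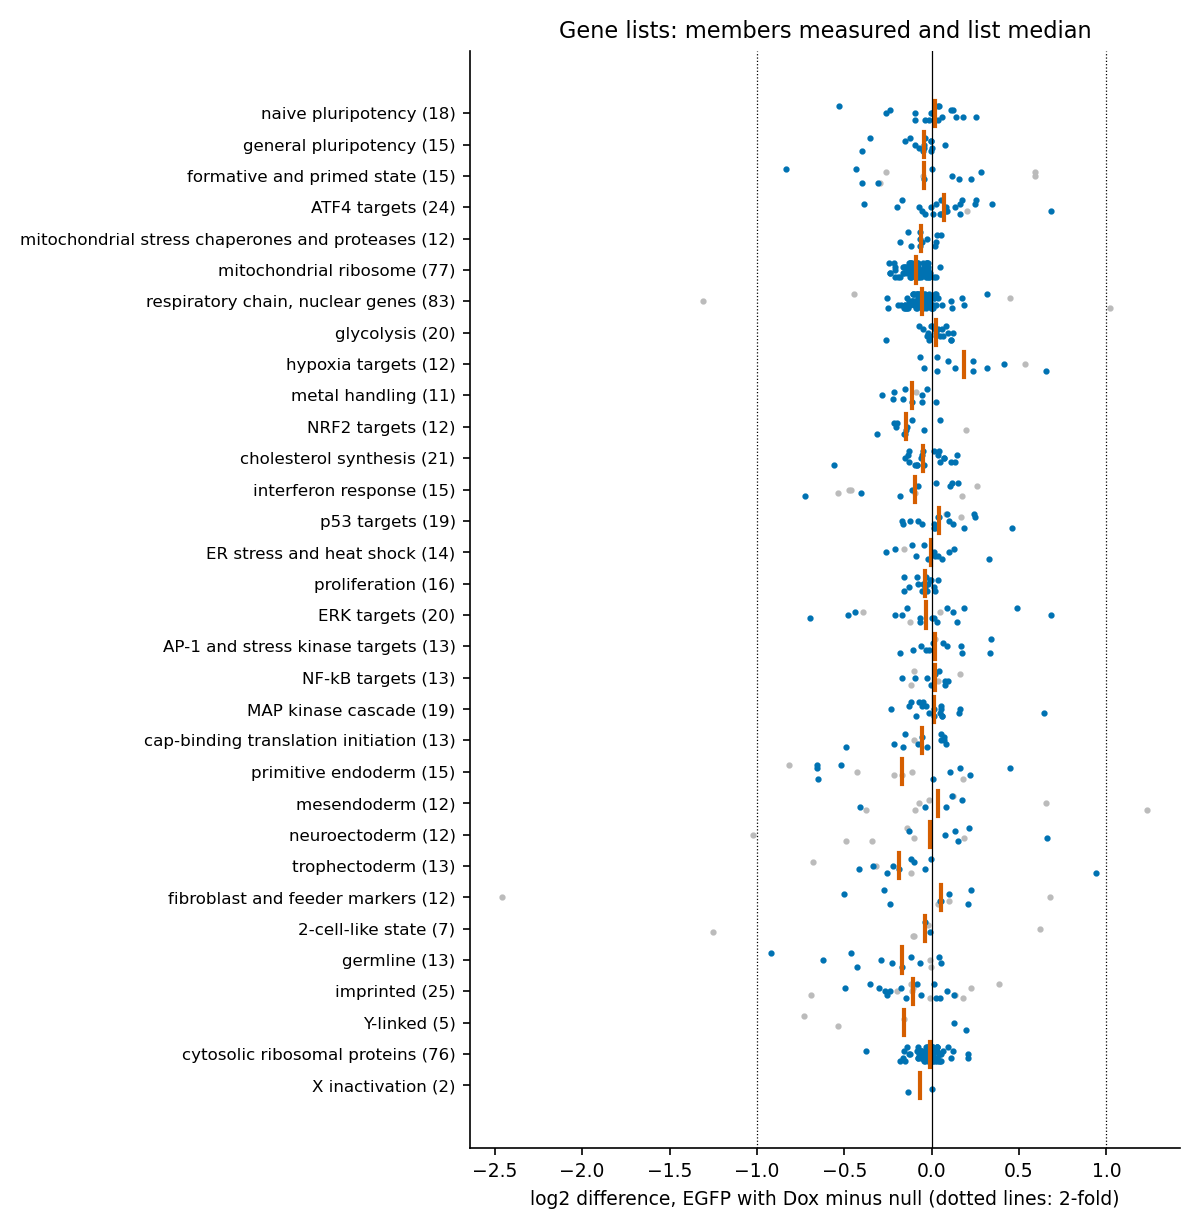
EGFP minus null log2 difference of each measured member of the 32 gene lists, with the number of members in brackets, blue where the gene was above background on all 6 arrays and grey where not, and an orange bar at the list median. List medians lie between -0.19 (trophectoderm) and 0.18 (hypoxia targets), and the dotted lines mark 2-fold, which the mitochondrial ribosome and glycolysis genes stay inside.

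Whole chromosomes differed little between the groups, chromosome 1 the most. Over chromosomes 1 to 19 and X, with 277 to 1035 genes each, the median EGFP minus null difference ran from -0.085 on chromosome 1 to -0.007 on chromosome 7. On chromosome 1 the pairs gave -0.11, -0.06 and -0.10, smaller than the gap between numbers within a group. In pair 3 the other autosomes lay between 0.008 (chromosome 13) and 0.042 (chromosome 8), and X at -0.002. In pair 2 chromosomes 13 (-0.064) and X (-0.080) lay below chromosome 1 (-0.059). The cause of the chromosome 1 shift was not tested.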

How the data were processed

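RNA of 15 samples in 5 groups of 3 was hybridised to single-colour Agilent arrays, and the authors' scans were quantified by Feature Extraction 11.5.1.1, per the file headers. The deposited processed green signal, an intensity already corrected for background by that software, was taken to log2 here, averaged over spots of a probe, and reduced by the array's 75th percentile of non-control probes. The authors' deposited log2 values correlated with it at 1.0 on every array. Symbols came from RefSeq accessions (28331 of 55681 probes). Probes well above background on all 3 arrays of a group passed (29782), and the brightest named probe stood for its gene (14443). One limma 3.58.1 fit (R 4.3.3) with 5 group means had 10 residual degrees of freedom, two-sided tests and Benjamini-Hochberg adjustment over all genes. It was tested on simulated data with independent noise on each array. Those data held no pattern by replicate number, slide or row, so that test does not cover such patterns. Equal replicate numbers correlated above 0.1 in every pair of null and EGFP arrays and not with wild type (-0.0349 to 0.0608 over the 4 null-derived groups), so a 12-array fit with number as a block, added after the data were seen, is given where calls change. It changed the calls named in the report. Named were called genes, the 5 largest uncalled differences each way, list extremes, and Pou5f1, Nanog, Sox2 and Klf4. The groups and gene lists were chosen with earlier results of these data known. The number of arrays limits the precision.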

Additional observations from a re-analysis of the deposited data

How the results depend on the processing

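Genes called between EGFP and null cells numbered 1 under the main settings. They numbered 0 over the 6 arrays alone, over those 6 with a replicate block, over the 12 null-derived arrays without a block and at a 2-fold minimum, and 2 over all passing probes and with normexp on median signals. They numbered 4 with probes above background in null or EGFP cells, 12 with slide and row as blocks, 14 with the replicate block over 12 arrays and 20 with slide as a block, and 0 to 8 leaving out a replicate. Calls of Map3k3 without Dox against null numbered 0, but 2 with slide row as a block or normexp, 3 with an intensity trend, 7 with slide and row, 10 with a filter on all 15 arrays, 13 with slide, 39 with the replicate block over 15 arrays, 60 over 12, and 0 to 2 leaving out a replicate. EGFP against Map3k3 without Dox gave 0, but 1 with slide row or normexp, 4 with slide and row, and 0 to 1 leaving out a replicate. The share bounded within 2-fold was 87.9%, and 43.7% with simultaneous intervals, which are wider by construction. It was 64.9 to 98.1% under the other settings run. Null against wild type kept its count within 1.5 times everywhere, but its split went from 2485 higher and 2964 lower to 1811 and 3486 with the 75th percentile over detected probes, 2256 and 1599 with only probes above background on all 15 arrays, and 2431 and 1808 with those above background in null or EGFP cells.

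Of 685 values under alternatives for 30 genes (those called with or without the block, the 10 largest uncalled differences, 4 pluripotency genes, Eif4g2 and Map3k3), 656 stayed on their side of the threshold, 5 lost and 18 gained a call, and 6 turned in sign. These were Calml4 (0.081) with slide, Eif4g2 with slide (0.14) and with slide and row (0.086), N6amt1 without null 2 (0.11, with a leave-one-out range down to -3.17), Rsph1 without EGFP 3 (-0.18, with a range up to 2.21) and Slc38a5 with slide and row (0.15). Of 1393 values for 62 list extremes, 1375 stayed on their side, 2 gained a call (Foxa2 without null 2, -1.29, and Zscan4c with slide, 2.29) and 16 turned in sign, in 12 genes. With slide and row these were Cdk1 (0.012), Dppa3 (0.885), Eif4g3 (0.178), Herpud1 (-0.054), Mapk8 (-0.014), Nfkb1 (0.005), Pmvk (-0.158), Slc30a1 (0.01) and Tcl1 (-0.415), with slide Dppa3 (0.094) and Eif4g3 (0.116), and over the mean of probes Mapk8 (-0.157). The others were Cox6a2 without null 3 (0.336), Rps2 without null 1 (-0.026), Mapk8 without EGFP 2 (-0.079) and Zscan4c without EGFP 3 (-0.213). Of 713 list medians under alternatives, 650 moved by less than their spread. Except for settings that leave out arrays or probes, the cause of these changes was not tested. Normexp on mean signals was planned and not run, because the array tables used here hold median signals.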
